A study of Mus musculus with 8 samples.

Results

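The nuclear-encoded subunits of the 5 respiratory chain complexes were examined in eWAT, the white fat lying along the epididymis, taken from 8 C57BL/6 males. All 8 mice had HFD-induced obesity and carried floxed alleles of Slc16a1 (Slc16a1 flox/flox). The 4 WT mice (numbers 2, 3, 4 and 5) had the floxed alleles alone, and the 4 AKO mice (numbers 3, 8, 9 and 11) also carried AP2-cre and have the genotype label Slc16a1 -/-. In AP2-cre the recombinase is under the promoter of Fabp4, an adipocyte gene that macrophages also express, and whole fat pads were sequenced, so other cell types contribute RNA. The members are protein-coding genes whose symbols name a subunit of complexes I to V. The rule gave 84 of 55487 gene identifiers, namely 36 of complex I, 4 of complex II, 8 of complex III, 18 of complex IV and 18 of complex V. Cox7a1 and Cox8b were left out by the rule, and Ndufa4 and Ndufa4l2 were placed with complex IV, where the NDUFA4 protein is found. Values are TPM, in which a gene's reads are divided by transcript length and scaled to a fixed total. Levels of different genes can then be set side by side, with a limit from coding length given below. Read depth per library is unknown, since TPM does not retain it.

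Slc16a1 encodes the lactate and pyruvate carrier MCT1, the targeted gene. Its level was 23.4, 28.5, 15.7 and 17.6 TPM in WT mice 2, 3, 4 and 5, and 22.4, 21.5, 27.05 and 25.03 TPM in AKO mice 3, 8, 9 and 11. The groups overlapped (log2 difference AKO minus WT of 0.19, limma FDR 0.850), so the gene's total level gave no sign of the deletion in the AKO libraries. WT and AKO name the labels here, and every direction below rests on them. Adipoq, the adipocyte hormone adiponectin, was at 1864 TPM or more in every library. Of 6 skeletal muscle markers, Ckm, Myh4, Myh1 and Tnnt3 were under 1 TPM in all 8, while Acta1 was at 10.99 to 65.01 TPM and Mylpf at 0.36 to 4.90 TPM. Of 6 markers of brown and beige adipocytes, Ucp1, the uncoupler, was under 1 TPM in all 8, and 4 were detected, with Cox8b at 28.1 to 96.9 TPM and Cox7a1 at 16.1 to 30.6 TPM. Cox7a1 averaged 18.6 ± 3.05 TPM in WT and 26.0 ± 3.34 TPM in AKO (SD, n = 4), with overlapping groups. Its log2 difference was 0.47 (unadjusted limma p 0.0062, limma FDR = 0.831), and that of Cox8b was 0.15 (limma FDR = 0.943). Both genes are outside the counts and shares of complex IV below. Libraries that stood apart in the members were those of WT 3 and AKO 3, which were lowest in their groups for most subunits, and AKO 11, which held far more germ cell transcripts than the rest.

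The respiratory chain sits in the inner mitochondrial membrane. Complex I (NADH dehydrogenase) and complex II (succinate dehydrogenase) pass electrons to ubiquinone, complex III passes them on to cytochrome c, and complex IV hands them to oxygen. Complexes I, III and IV pump protons, and complex V, ATP synthase, uses the returning protons to make ATP. Apart from complex II, which is wholly nuclear-encoded, each complex combines subunits from nuclear genes with a few encoded by mitochondrial DNA. In white adipocytes these complexes provide ATP for lipid synthesis and hormone secretion.

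No subunit transcript passed the test between AKO and WT. Of the 84 members 81 could be tested. The 3 that could not were the testis-type isoforms Cox7b2 and Cox8c and a second identifier of Atp5o, which was listed at 0 in all 8 libraries. With limma on log2(TPM + 1) and Benjamini-Hochberg adjustment over 14172 genes, 0 of 81 members had an FDR below 0.05, beside 0.0282% of all genes, and the smallest FDR of a member was 0.831. At an unadjusted limma p below 0.05, 1 member (Atp5s) was higher in AKO and 0 were lower, while 2.58% of all genes were higher and 2.17% lower at that level. The median difference over the 81 members was 0.0084 on the log2 scale, with 43 positive and 38 negative values, and it was -0.0082 under median-ratio scaling and -0.0018 without mitochondrial genes in the total. Over all genes tested the median was 0.015, with 53.8% positive. The 95% interval of the difference lay within 0.5 log2 units of 0 for 76 of the 81 members. The other 5, Cox4i2, Cox6b2, Cox6a2, Atp5g2 and Atp5s, were all below 25 TPM on average. In bulk tissue, fewer cells of a type and less RNA per cell cannot be told apart.

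For 3 members every AKO mouse was above every WT mouse, and for 0 members every AKO mouse was below. This is 3.70% of the 81, beside 1.11% of all genes in the first direction and 1.33% in the second. Atp5s, also called factor B or Dmac2l, is an ATP synthase-associated protein rather than a structural subunit. It measured 11.4, 13.2, 10.3 and 10.75 TPM in WT mice 2, 3, 4 and 5, and 16.6, 13.95, 14.4 and 14.0 TPM in AKO mice 3, 8, 9 and 11. The lowest AKO mouse lay 0.71 TPM above the highest WT mouse, and the log2 difference was 0.35 (SE 0.10, limma FDR = 0.831). With the gene's highest deposited row in place of the sum of its rows, that difference was 0.92. That row held 39.0% of the gene's mean level. In the settings that kept all mice, this one among them, no member had a limma FDR under 0.805. Cox7b, an X-linked subunit of complex IV, was at 136, 143, 132 and 132 TPM in WT and at 148, 145, 149.5 and 154 TPM in AKO. Its groups were separated by 1.98 TPM, with a log2 difference of 0.13 (SE 0.061, limma FDR = 0.831). Atp5l, subunit g of the membrane part of ATP synthase, was at 554, 572, 563 and 590.3 TPM in WT and at 596, 629.6, 604 and 595 TPM in AKO (log2 difference 0.09, SE 0.066, limma FDR = 0.831). Its groups overlapped once the reads of its near-identical copies were added.

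**Figure D1:**
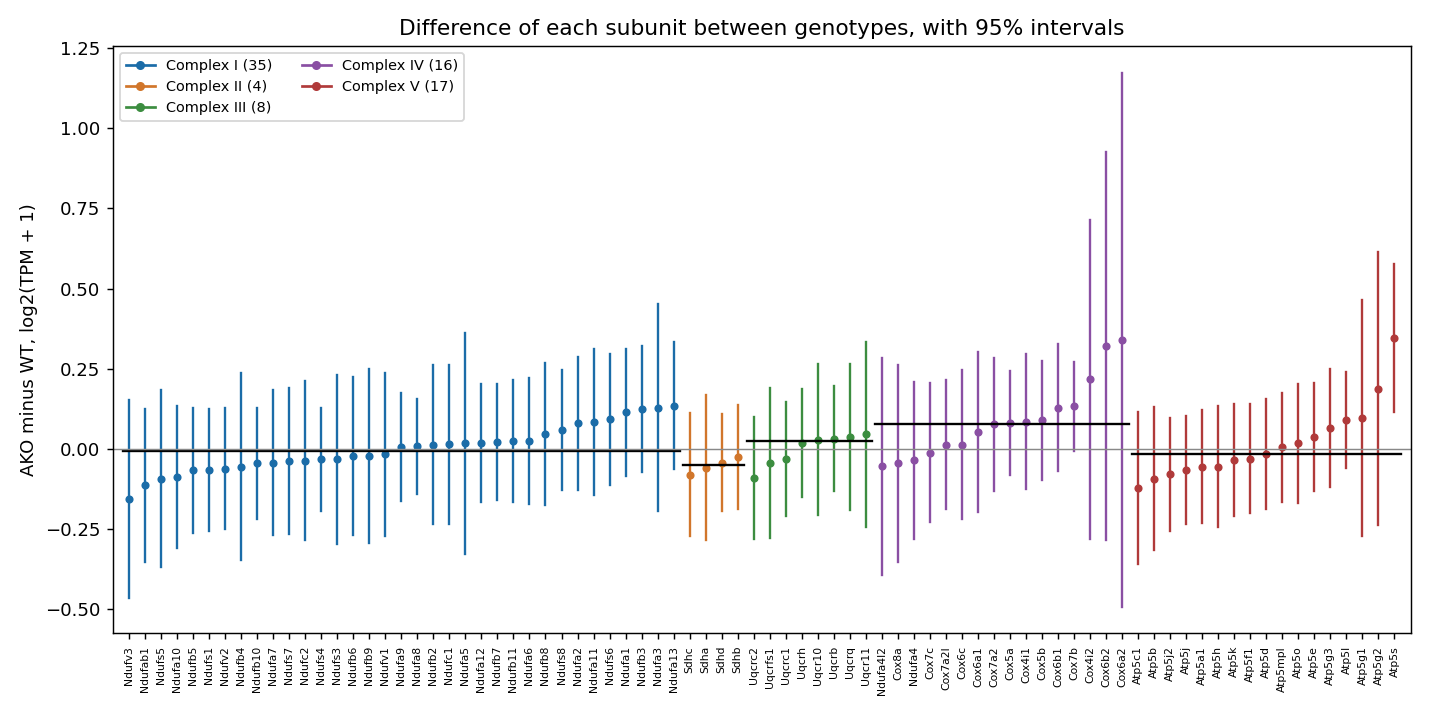
Log2 difference between AKO and WT (points) with 95% intervals from limma (bars) for 80 of the 81 subunits tested, ordered within each complex; short black lines are the medians of all tested members of a complex and the axis is log2(TPM + 1). The medians lie between -0.050 (complex II) and 0.079 (complex IV), and the intervals are widest for isoforms of low level, such as Cox6a2.

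The start regions of these genes were compared, since subunits of one machine are often described as sharing promoter motifs. RefSeq promoter windows (assembly GRCm38.p6), from 250 bases before to 50 after the start of the gene, were matched for 67 of the 84 members, 65 of them by symbol. The windows of the 3 members that did not overlap between the groups are shown, with that of Sdha, which held the motif of NRF1 (nuclear respiratory factor 1) 3 times. They are Cox7b at chrX:106015450-106015749 (plus strand), Atp5s at chr12:69724695-69724994 (plus strand), Atp5l at chr9:44920693-44920992 (minus strand) and Sdha at chr13:74350191-74350490 (minus strand). Each is written 5′ to 3′ on the strand of its gene. Capitals mark matches to the NRF1 motif GCGCNTGCG or the GABPA motif CCGGAAG on either strand.
Cox7b: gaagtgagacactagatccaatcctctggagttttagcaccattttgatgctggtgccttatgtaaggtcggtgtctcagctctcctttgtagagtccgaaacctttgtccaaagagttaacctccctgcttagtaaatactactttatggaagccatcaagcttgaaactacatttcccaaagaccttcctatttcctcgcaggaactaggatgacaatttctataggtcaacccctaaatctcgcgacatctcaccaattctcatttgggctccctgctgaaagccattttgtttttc
Atp5s: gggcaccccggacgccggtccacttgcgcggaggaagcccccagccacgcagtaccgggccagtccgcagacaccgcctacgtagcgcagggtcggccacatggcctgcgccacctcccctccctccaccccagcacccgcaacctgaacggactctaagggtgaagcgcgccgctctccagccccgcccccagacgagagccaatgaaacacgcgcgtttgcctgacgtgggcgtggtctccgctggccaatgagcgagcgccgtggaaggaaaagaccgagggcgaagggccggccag
Atp5l: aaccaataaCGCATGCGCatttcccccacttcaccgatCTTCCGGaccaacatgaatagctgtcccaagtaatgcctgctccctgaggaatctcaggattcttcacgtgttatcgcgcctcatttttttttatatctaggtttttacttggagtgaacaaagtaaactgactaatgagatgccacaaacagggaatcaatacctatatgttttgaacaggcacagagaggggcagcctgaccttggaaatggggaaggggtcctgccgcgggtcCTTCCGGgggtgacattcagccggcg
Sdha: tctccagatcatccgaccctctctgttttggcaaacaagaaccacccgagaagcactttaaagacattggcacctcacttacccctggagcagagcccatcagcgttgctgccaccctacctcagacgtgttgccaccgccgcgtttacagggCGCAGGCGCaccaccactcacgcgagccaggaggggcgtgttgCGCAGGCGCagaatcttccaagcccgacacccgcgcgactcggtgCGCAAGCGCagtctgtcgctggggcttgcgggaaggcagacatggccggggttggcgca
Cox7b and Atp5s held neither motif in these windows. Atp5l held 1 match to the NRF1 motif and 2 to the GABPA motif, so the 3 members with separated groups did not share these letters.

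Across the 67 members with a window, the NRF1 motif was found in 23 (34.3%), beside 7.12% of the promoter windows of all 27025 genes. By complex these were 9 of 32 for complex I, 2 of 3 for complex II, 3 of 5 for complex III, 1 of 12 for complex IV and 8 of 15 for complex V. The GABPA motif, the core of the site bound by GABP (nuclear respiratory factor 2), was in 16 members (23.9%), beside 9.93% of all genes. Either motif was in 33 members, beside 15.6% of all genes, and both were in 6. The YY1 core AAGATGG was in 11 members (16.4%, beside 7.28%), and the core AAGGTCA of the ERR alpha site was in 8 (11.9%, beside 5.38%). Shares near those of all genes were seen for the SP1 core GGGCGG (43.3%, beside 38.2%), for CCAAT (43.3%, beside 41.1%) and for the E-box CACGTG (8.96%, beside 8.09%). The TATA box TATAAA was in 6 members (8.96%, beside 15.7%). All motifs were searched on both strands, and in 1 member a GABPA match shared letters with an SP1 match. The members' windows also differed in composition, with a median of 58.3% G and C and 19 CG pairs, beside 52.7% and 7 in all genes. A match is a description of letters, not of a bound site.

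Transcript levels of the subunits spanned a wide range, except in complex II. ATP synthase beta, Atp5b, which carries the catalytic sites, was the highest member at 2321 ± 163 TPM in WT and 2176 ± 152 TPM in AKO (SD, n = 4). Only 3 others averaged above 1000 TPM, all of complex IV, namely Cox8a, Cox6a1 and Cox4i1. The lowest member tested was Cox6a2, the muscle and heart isoform of subunit 6a, at 2.08 ± 1.41 TPM in WT and 2.90 ± 1.76 TPM in AKO. Its level is uncertain, since its exons overlap the opposite-strand gene Itgad, at 7.91 TPM on average. The median level of the members was highest in complex III and lowest in complex I. It ran from 416 to 482 TPM over the 8 mice in complex III, from 314 to 383 in complex V, from 245 to 288 in complex IV, from 159 to 184 in complex II and from 138 to 175 in complex I. This order held in all 8 mice, although complexes I and II overlapped in range between mice, and in 6 of 8 once near-identical copies were added. Level fell with coding length over the members tested (Spearman correlation -0.35). The median coding length was 303 bases in complex III, 441 in V, 279 in IV, 679.5 in II and 453 in I. The part of length in the order of the complexes was not tested. The summed level of all members was 2.39% to 2.74% of all TPM.

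**Figure D2:**
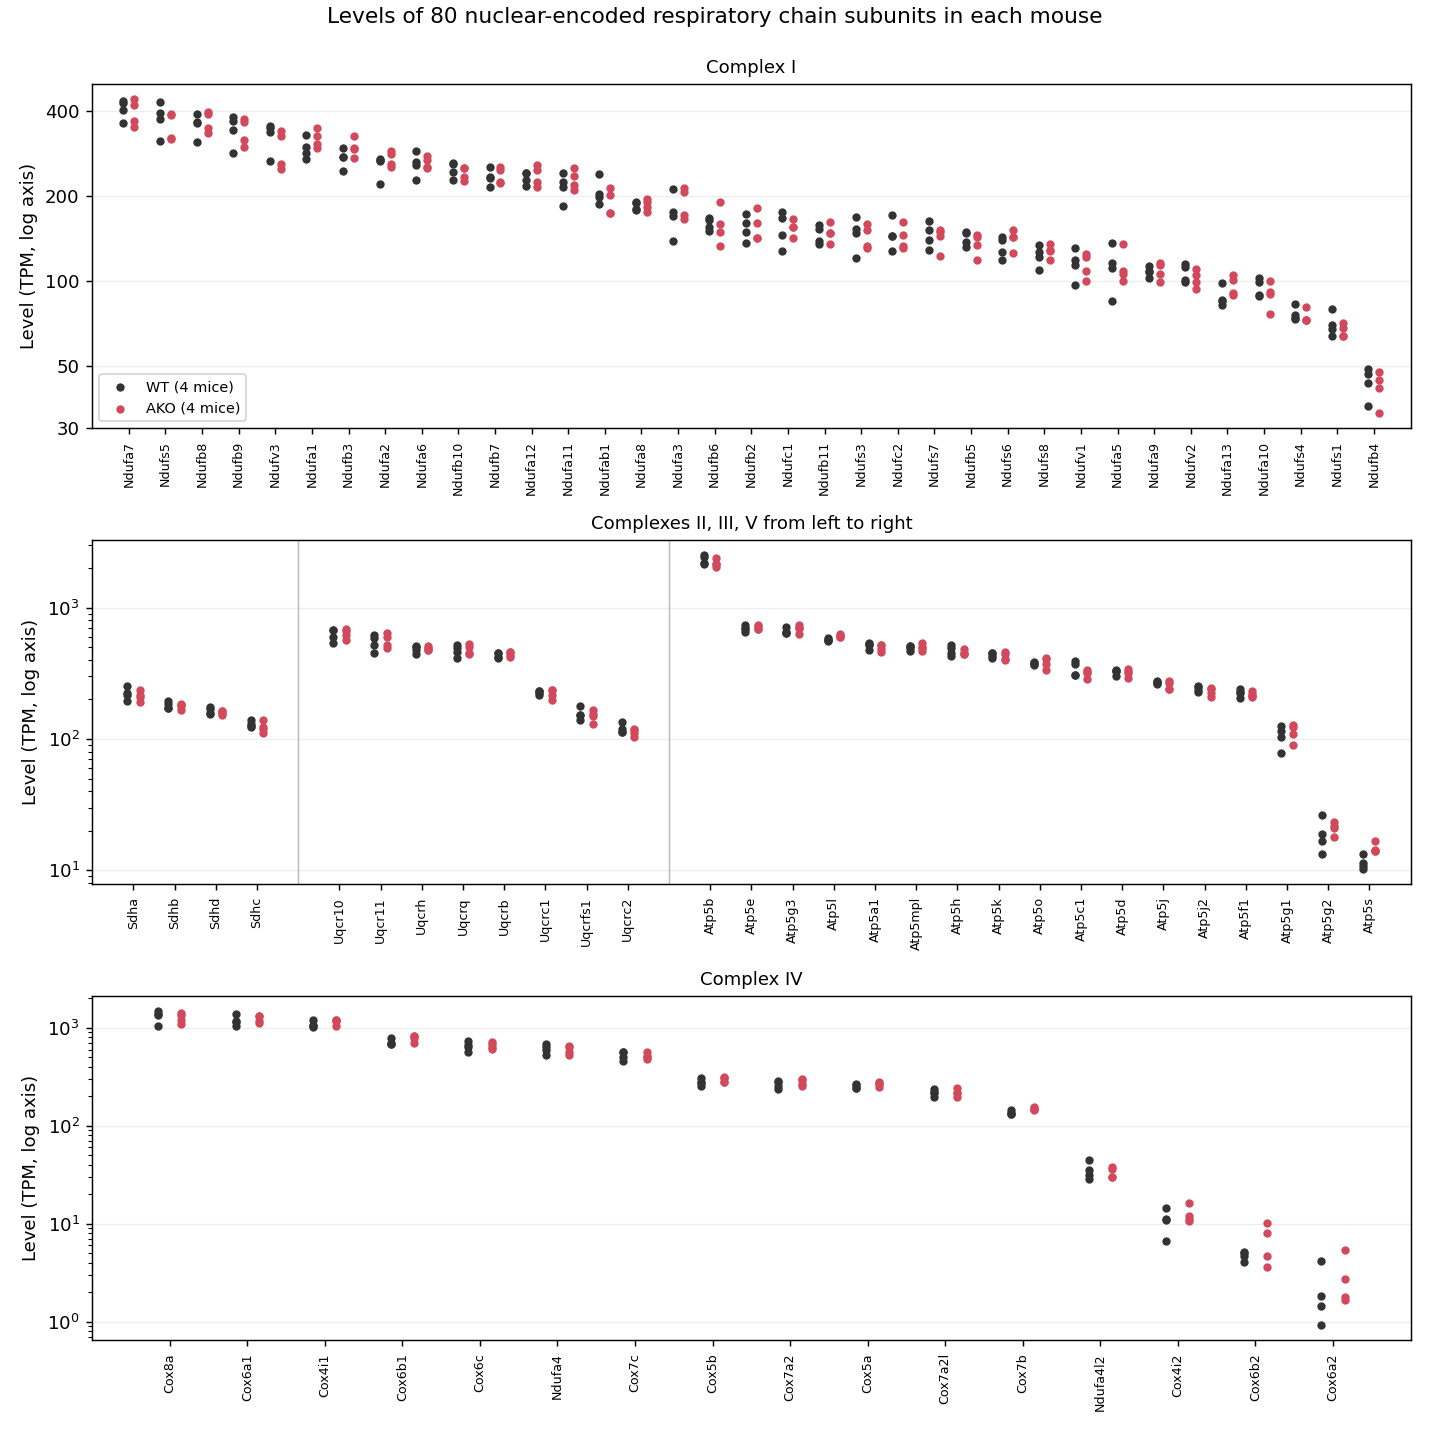
Level of 80 of the 81 subunits tested in the 4 WT mice (black points) and the 4 AKO mice (red points), in TPM on log axes, ordered by mean within each complex. The groups overlap for all but Atp5s, Cox7b and Atp5l, and levels run from 0.93 TPM for Cox6a2 to 2503 TPM for Atp5b.

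Complex I had 36 members, all tested, with 18 positive and 18 negative differences, a median of -0.0055 and 0 at an unadjusted limma p below 0.05. This balance depended on single mice, with 28 of 36 negative without WT 3 (median -0.058), 27 without AKO 8 (median -0.041), 12 without WT 4 (median 0.030) and 11 without AKO 3 (median 0.039). Its core subunits carry the flavin and the iron-sulphur clusters. Ndufv1, which binds NADH, was at 115 ± 14.0 TPM in WT and 114 ± 11.7 TPM in AKO. Ndufs1, the largest subunit, was at 70.1 ± 6.63 and 66.8 ± 3.57 TPM. Its level is uncertain, since its exons overlap the opposite-strand gene Eef1b2, at 294 TPM on average. Ndufs7, which carries an iron-sulphur cluster near the ubiquinone site, was at 146 ± 14.9 and 142 ± 13.1 TPM. Ndufs8 was at 123 ± 10.6 and 128 ± 6.99 TPM. The smallest p of the complex belonged to accessory subunits. Ndufa13, also known as GRIM-19, was at 98.6, 84.9, 85.8 and 82.1 TPM in WT mice 2, 3, 4 and 5 and at 90.8, 105.02, 89.4 and 101 TPM in AKO mice 3, 8, 9 and 11. WT 2 lay within the AKO range, and the log2 difference was 0.14 (limma FDR = 0.831). Ndufb3 (log2 difference 0.12, limma FDR = 0.831) and the X-linked Ndufa1 (0.11, limma FDR = 0.831) followed. The highest levels in the complex were those of Ndufa7, at 408 ± 32.6 and 397 ± 41.6 TPM, and Ndufs5, at 380 ± 49.3 and 355 ± 40.3 TPM. The lowest was Ndufb4, at 43.6 ± 5.49 and 42.0 ± 5.83 TPM, with a copy described below.

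Complex II had 4 members, and all 4 had a negative difference, with a median of -0.050 and 0 at an unadjusted limma p below 0.05. Sdha, the flavoprotein that oxidises succinate, was at 223, 195, 251 and 217 TPM in WT and at 191, 215, 209 and 236 TPM in AKO (log2 difference -0.06, SE 0.099, limma FDR = 0.916). Sdhb, the iron-sulphur subunit, was at 180.3 ± 10.8 and 177 ± 8.47 TPM. The membrane anchors were Sdhc at 130 ± 7.98 and 123 ± 11.2 TPM, with the smallest p of the complex (limma FDR = 0.870), and Sdhd at 165 ± 9.14 and 159.6 ± 4.97 TPM. WT 4 was the highest WT mouse for all 4, and without it 2 of the 4 differences were negative and the median was -0.0046. These 4 subunits stayed within a range of 127 to 217 TPM on average.

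Complex III had 8 members, with 5 positive and 3 negative differences and a median of 0.023. Its subunit cytochrome c1 (Cyc1) has a symbol outside the rule and is not in these counts. Uqcrfs1, the Rieske iron-sulphur protein, was at 155 ± 15.8 TPM in WT and 151 ± 15.6 TPM in AKO. Uqcrc2, a core subunit, had the smallest p, at 112, 113, 135 and 119 TPM in WT and 104, 110.3, 118 and 118 TPM in AKO (log2 difference -0.09, limma FDR = 0.850). The groups overlapped, with WT 4 and WT 5 above all AKO mice. The small subunits had the highest levels, led by Uqcr10 at 623 ± 66.1 and 634 ± 52.3 TPM and Uqcr11 at 543 ± 72.0 and 560.1 ± 68.7 TPM. Without WT 3 the median of the complex was -0.034, with 7 of 8 differences negative, and without AKO 3 it was 0.044, with 7 of 8 positive.

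Complex IV had 18 members, 16 of them tested, with 12 positive and 4 negative differences and a median of 0.079, which ran from 0.062 to 0.083 over the other normalisations and filters. Cox7b was the 1 member with separated groups, and 0 of 16 had an unadjusted limma p below 0.05. Cox4i1, the main form of subunit 4, was at 1208, 1011, 1074 and 1053 TPM in WT and at 1036, 1202, 1185 and 1187 TPM in AKO. Of the AKO mice 3 lay above 3 of the WT mice, while AKO 3 lay among the WT mice, and the log2 difference was 0.09 (SE 0.093, limma FDR = 0.876). Cox6b1, on the side of the intermembrane space, was at 714 ± 48.0 and 781 ± 55.3 TPM (log2 difference 0.13, limma FDR = 0.831). The 2 highest members were Cox8a at 1309 ± 184 and 1264 ± 147 TPM and Cox6a1 at 1190.3 ± 137 and 1232 ± 104 TPM. The median was 0.035 without WT 3, with 10 of 16 positive, and 0.12 without WT 2, with 12 of 16 positive. Without WT 4 or without AKO 3, 15 of 16 were positive.

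Complex V had 18 members, 17 of them tested, with 8 positive and 9 negative differences and a median of -0.016. The 3 subunits of the catalytic head named here were Atp5b (log2 difference -0.09, limma FDR = 0.869), Atp5a1, its alpha partner, at 516 ± 26.5 and 496 ± 29.6 TPM, and Atp5c1, the rotating central shaft. Atp5c1 was at 308, 309.7, 394 and 373 TPM in WT and at 287, 326, 320 and 334 TPM in AKO (log2 difference -0.12, SE 0.10, limma FDR = 0.845). WT 4 and WT 5 were above all AKO mice, and WT 2 and WT 3 were among them. Atp5e, the epsilon subunit, had the second-highest level, at 693 ± 34.3 and 711 ± 28.7 TPM. The subunits of this complex varied least between mice, with a median coefficient of variation over the 8 mice of 6.00%, beside 8.57% in complex I. Over all 81 members it was 8.01%, and 74 of them were below the 15.3% that was the median over all genes. Levels were not matched in this comparison.

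Some subunits have alternative isoforms, and the balance between them was measured as a share within each library. Of the mixed pairs, Cox4i2, an oxygen-sensitive form of subunit 4, was 0.985% ± 0.285 of its pair in WT and 1.08% ± 0.205 in AKO (SD, n = 4). Ndufa4l2, a hypoxia-induced relative of Ndufa4, was 5.39% ± 0.496 and 5.31% ± 0.251 of its pair. Cox7a2l was 45.1% ± 3.84 and 44.0% ± 3.54 of its sum with Cox7a2. This is a share of transcripts, and the Cox7a2l allele and protein of these mice were not examined. The c-ring proteins of ATP synthase come from 3 genes that encode the same mature protein. Atp5g3 gave 84.2% ± 2.33 and 83.8% ± 2.76 of them, Atp5g1 gave 13.4% ± 2.20 and 13.7% ± 2.40, and Atp5g2 gave 2.37% ± 0.569 and 2.55% ± 0.362. These shares rest on how reads were divided with near-identical copies. With copies added, Atp5g3 gave 58.7% ± 2.50 and 58.5% ± 3.39, Atp5g1 gave 9.52% ± 1.06 and 9.49% ± 1.45, and Atp5g2 gave 31.8% ± 1.503 and 32.0% ± 1.95. Over 8 shares the two-sided exact permutation p ran from 0.400 to 0.914, each at least 0.914 after adjustment over the 8, where the smallest p that 4 against 4 mice allow is 0.0286. These shares do not show that the groups act alike, since they rest on 4 mice each.

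The testis-type isoforms of complex IV were low and uneven. Cox6b2 was at 5.07, 4.11, 4.70 and 5.19 TPM in WT mice 2, 3, 4 and 5 and at 4.69, 8.0, 3.61 and 10.3 TPM in AKO mice 3, 8, 9 and 11. Cox8c was at 4.43 TPM in AKO 11 and at most 0.49 TPM elsewhere, and Cox7b2 was at 1.63 TPM in AKO 11 and at most 0.24 TPM elsewhere. AKO 11 was thus the highest library for all 3, and AKO 8 was the next for Cox6b2 and Cox8c. The summed level of the germ cell markers Prm1, Prm2, Tnp1 and Ldhc, all 4 of the list, ranged from 8.60 to 32.0 TPM in WT. In AKO it was 0.81, 48.5, 0.15 and 1204 TPM in mice 3, 8, 9 and 11, and at 0 were Prm1 and Ldhc in AKO 9 and Tnp1 in AKO 3 and AKO 9. The part of germ cell transcripts in these isoform levels was not tested. The log2 difference of Cox6b2 was 0.32 (limma FDR = 0.843) with all mice and 0.10 (limma FDR = 0.900) without AKO 11.

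**Figure D3:**
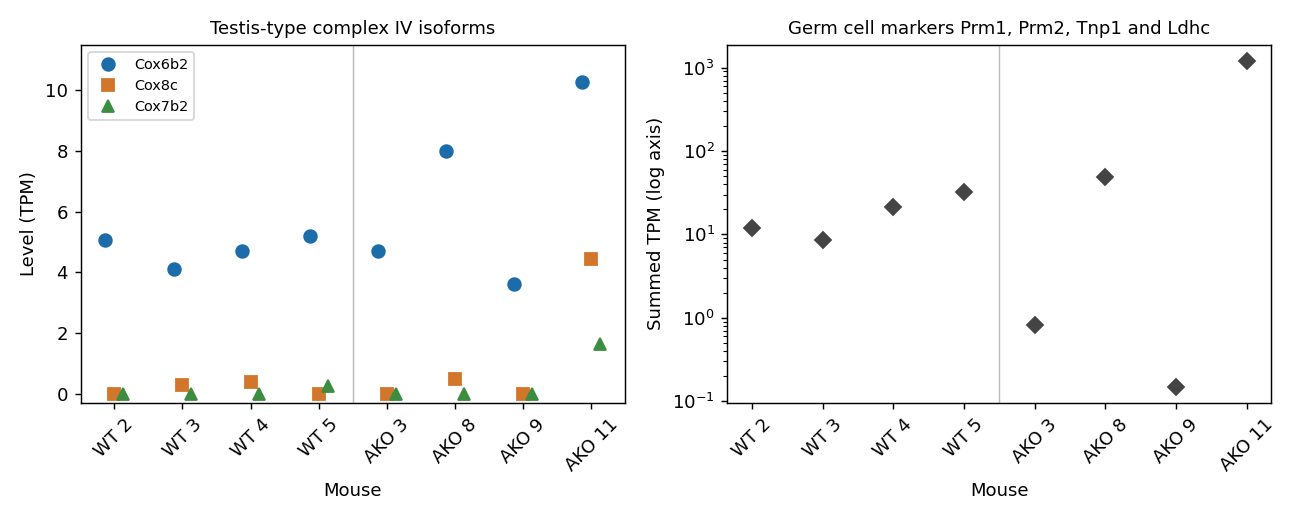
Left, levels in TPM of the testis-type isoforms Cox6b2, Cox8c and Cox7b2 in each mouse; right, summed TPM of 4 germ cell markers in the same mice on a log axis. AKO 11 is the highest library in all 4 series of points, with 1204 TPM of germ cell markers.

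Several subunit genes have near-identical copies elsewhere in the genome, and reads from the 2 cannot be told apart where the sequences match. Copies with at least 95% identity over at least 50% of the coding sequence, and not annotated as protein-coding in GENCODE M21, were found for 19 members, 35 copies in all. Of these, 8 copies of 6 members reached a mean of 1 TPM. A further 3 matches were protein-coding genes (Gm5426, Gm11273 and Donson) and were not added. Donson, at 4.56 to 9.96 TPM, matched the Atp5o identifier that was listed at 0. Ndufb4, an accessory subunit of complex I, held only 9.16% to 12.2% of the level it shared with Ndufb4c. The copy matched 100% of its coding bases and is a processed pseudogene in that annotation but a protein-coding gene in RefSeq. Together they were at 412 ± 78.2 TPM in WT and 393 ± 19.8 TPM in AKO, so the place of Ndufb4 as the lowest complex I member rests on how reads were divided. Cox7c held 40.7% to 51.3% of its sum with its copies, mostly Gm12338, and that sum was 1116 ± 106 and 1205 ± 58.1 TPM (log2 difference 0.11, limma FDR = 0.840). Atp5l held 59.6% to 65.9% of its sum with its copies Gm10221 and Gm4045. That sum was 858, 875, 944 and 914 TPM in WT and 904, 976, 970.4 and 985 TPM in AKO, with AKO 3 below WT 4 and WT 5. Atp5g2 held 3.68% to 7.06% of its sum with Gm10175. With copies added, 0 of the 6 members passed the limma test at an FDR of 0.05 (smallest FDR 0.834).

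**Figure D4:**
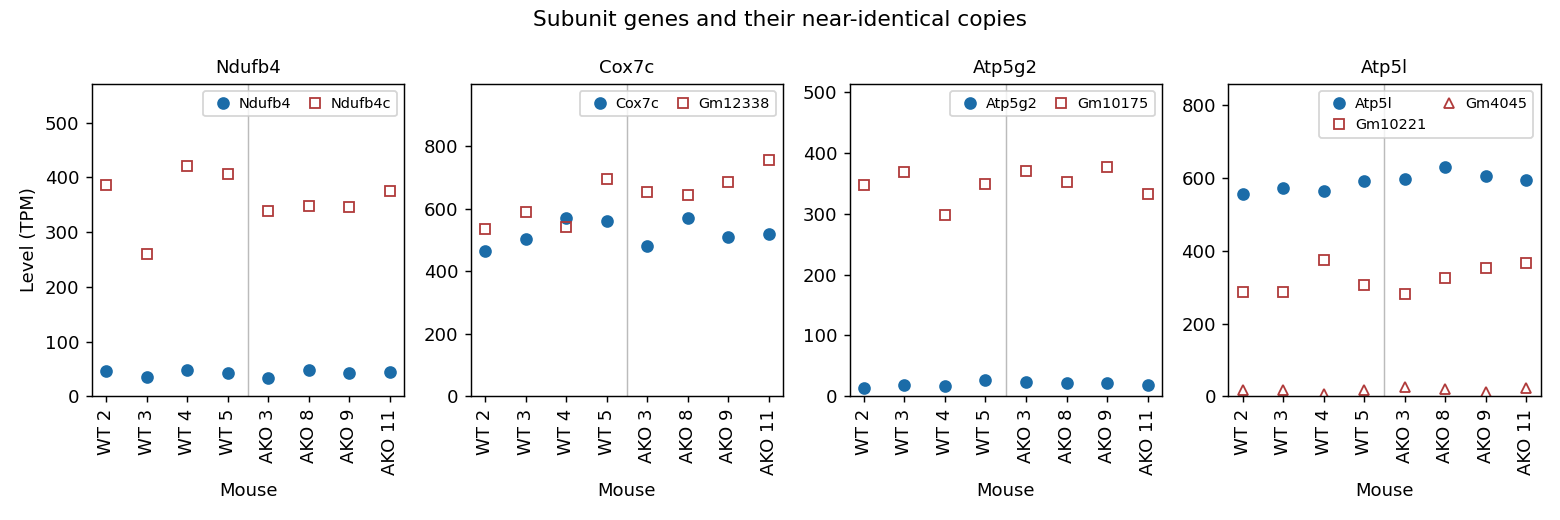
Levels in TPM of 4 subunit genes (filled circles) and of their near-identical copies (open symbols) in each mouse. Ndufb4 and Atp5g2 lie far below their copies in all 8 libraries, Cox7c is close to Gm12338, and Atp5l lies above both of its copies.

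The summed level of the members differed more between mice of one genotype than between the group means. Within WT, mouse 3 was lowest for 50 of the 81 members, beside 24.7% of all genes tested, and mouse 4 was highest for 39. Within AKO, mouse 3 was lowest for 54, beside 17.2% of all genes, mouse 8 was highest for 41 and mouse 11 for 31. The number 3 marks different animals in the 2 groups. For 37 members the lowest mouse of each group was the one numbered 3, beside 7.23% of all genes. These 37 included 17 of complex I, 3 of complex II, 4 of complex III, 7 of complex IV and 6 of complex V. A few members ran the other way, since Cox7a2l, Cox7b, Cox6a2, Atp5g1 and Atp5s were highest of the WT mice in WT 3, and Atp5g1, Atp5g2 and Atp5s were highest of the AKO mice in AKO 3. The summed level of all members was 26464, 23863, 27128 and 26444 TPM in WT mice 2, 3, 4 and 5, and 24140, 27400.2, 25217 and 27311 TPM in AKO mice 3, 8, 9 and 11. Group means were 25975 ± 1443 and 26017 ± 1607 TPM (SD, n = 4). The low mice of the 2 groups thus lay close together, and so did the high ones.

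By complex, the mean deviation of complex I from its mean over 8 mice was -0.14 log2 units in WT 3 and -0.12 in AKO 3, against 0.10 in WT 4 and AKO 8. Complexes II, III and IV were also low in both mice numbered 3, from -0.056 to -0.14. Complex V moved least, with a deviation of -0.029 in each of them and its lowest value, -0.062, in WT 2. The summed level of 12 adipocyte markers, all detected, was 28889 to 44924 TPM in WT and 30382 to 42663 TPM in AKO. It was lowest in WT 3 and AKO 3 within their groups, with AKO 9 close to AKO 3 at 30801 TPM. Its largest part was Fabp4, which macrophages also express, at 17641.5 to 26849.7 TPM in WT and 18688.7 to 26758.2 TPM in AKO. The summed level of 10 macrophage markers was 2271 to 5353 TPM in WT and 3676 to 6477 TPM in AKO, and was highest in WT 3 and AKO 9. That of 6 fibroblast and progenitor markers was 1272 to 2283 TPM in WT and 1621 to 2382 TPM in AKO. It was highest in WT 3 and AKO 3. Red blood cell markers ranged from 1520 to 5870 TPM in WT and from 1275 to 4380 TPM in AKO. The part of these cell type differences in the subunit levels was not tested. The median over all members depended on single mice, at -0.036 without WT 3, -0.021 without AKO 8 and -0.014 without AKO 11. It was 0.034 without AKO 3, 0.025 without AKO 9 and 0.022 without WT 4.

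**Figure D5:**
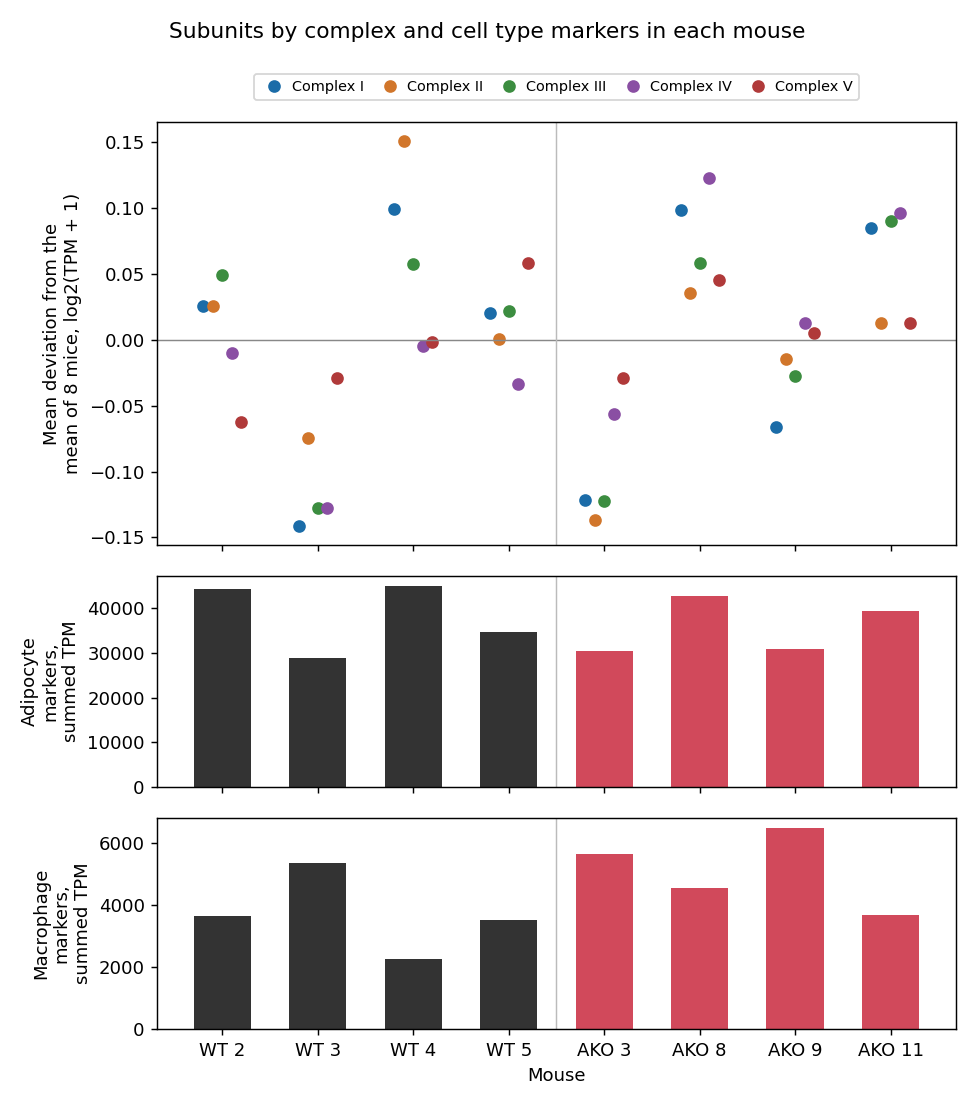
Top, mean deviation of the members of each complex from their mean over 8 mice, in log2(TPM + 1), for each mouse; below, summed TPM of 12 adipocyte markers and of 10 macrophage markers (black bars WT, red bars AKO). WT 3 and AKO 3 are low for complexes I to IV and have the lowest adipocyte marker sum of their group, while complex V lies within 0.062 of its mean in every mouse. Fabp4 is the largest part of the adipocyte marker sum.

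The genes that build and serve the chain were counted from lists drawn up by their known roles. Of 48 assembly factors tested, 35 had a negative difference, with a median of -0.083, beside 38 of 81 subunits and 46.2% of all genes. That count was 32 to 39 when each mouse was left out and 35 to 38 under the other alternatives. Only Bcs1l, which inserts the Rieske protein into complex III, had an unadjusted limma p below 0.05, at 11.96, 16.0, 15.8 and 15.8 TPM in WT and 13.3, 10.2, 10.75 and 11.4 TPM in AKO (log2 difference -0.36, limma FDR = 0.831). The number at that level was 1 higher and 4 lower without WT 3, 3 lower without AKO 11 and 2 lower without WT 2 or without WT 5. It stayed at 1 lower and 0 higher without WT 4, AKO 3, AKO 8 or AKO 9. With all mice 2.58% of all genes were higher and 2.17% lower at that level, and these shares were not counted with a mouse left out. Complex I assembly factors were negative for 13 of 15 (median -0.13), and Ecsit had the smallest p of them (log2 difference -0.23, limma FDR = 0.831). Those of complex IV were negative for 11 of 20. Whether assembly factors and subunits differ in their response was not tested.

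Partners outside the rule, such as cytochrome c and the enzymes of ubiquinone synthesis, were negative for 11 of 13, and for 7 of 13 without AKO 3. They include Cyc1, cytochrome c1, a subunit of complex III whose symbol the rule does not match. Cyc1 was at 149 ± 7.52 TPM in WT and 145 ± 15.9 TPM in AKO (log2 difference -0.045, limma FDR = 0.929). Pdss2, which makes the side chain of ubiquinone, was at 6.13, 6.01, 7.24 and 7.08 TPM in WT and 5.37, 5.07, 5.64 and 5.14 TPM in AKO, all AKO mice lying below all WT mice (log2 difference -0.27, limma FDR = 0.831). All 10 general mitochondrial markers were negative, with a median of -0.12, and 9 or 10 were under every alternative. Among them the chaperonin Hspd1 was at 196, 195, 207 and 197 TPM in WT and 156, 169, 164 and 189 TPM in AKO (log2 difference -0.23, limma FDR = 0.831). Markers of macrophages and adipocytes had these values in the same libraries. All 10 macrophage markers were positive, with a median of 0.45 and summed levels of 3697 ± 1267 TPM in WT and 5087 ± 1227 TPM in AKO. Of 8 markers of lipid-associated macrophages 7 were positive, with a median of 1.21, and Itgax, Ctsk and Spp1 were higher at an unadjusted limma p below 0.05. Of 12 adipocyte markers 10 were negative, with a median of -0.17, and Plin1 was lower at that level (log2 difference -0.33). Over all genes 2.58% were higher and 2.17% lower at that level. The smallest FDR in these 3 lists was 0.831 (limma), and their part in the values of the mitochondrial genes was not tested. Hspd1 and Pdss2 had separated groups, which 1.33% of all genes had in this direction. The 13 subunits encoded by mitochondrial DNA summed to 80287 ± 6808 TPM in WT and 73194 ± 7419 TPM in AKO, with 10 of 13 negative, a median of -0.11 and 0 at an unadjusted limma p below 0.05. Without AKO 11, 4 of the 13 were lower at that level, with a median of -0.16, and without WT 4 the median was -0.068. With any other mouse left out, 0 of the 13 were lower at that level, so the 4 rest on a single omission. The share of all genes lower at that level was not counted without AKO 11. The largest part of the mitochondrial sum was mt-Atp8, at 33838.5 ± 2457 TPM in WT and 31426.5 ± 3154 TPM in AKO. By contrast, mt-Atp6 was at 736 ± 221 and 756 ± 79.1 TPM, and mt-Co2 ran from 74.05 to 508.1 TPM within WT. The positive differences were those of mt-Co2, mt-Co3 and mt-Atp6. How reads were divided among these genes is not known, so the sum and the count of directions are uncertain. Of 13 regulators tested, 7 were positive and 6 negative. Perm1, a regulator of oxidative metabolism in muscle, was at 0.71 ± 0.578 and 1.62 ± 0.648 TPM (log2 difference 0.64, limma FDR = 0.831). It was the only one with an unadjusted limma p below 0.05. Its level was 0.47, 1.55, 0.24 and 0.58 TPM in WT and 1.82, 1.04, 2.44 and 1.16 TPM in AKO. It therefore met the filter of 1 TPM in 4 libraries only through the AKO mice, and its p carries that selection. The NRF1 transcript itself (Nrf1) was at 11.3 ± 2.12 and 12.51 ± 1.09 TPM, and Gabpa at 19.2 ± 1.18 and 19.2 ± 2.02 TPM. Ppargc1a, the coactivator of mitochondrial biogenesis, was at most 1.03 TPM in every library and was not tested. The smallest FDR in any of these lists was 0.831 (limma, over all genes).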

How the data were processed

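Epididymal fat RNA of 4 WT and 4 AKO mice was sequenced with the Illumina TruSeq RNA kit, per the labels' protocols. The authors deposited TPM values, 152298 rows per library. Per the submitters' processing notes, the authors used HISAT2 and DESeq2 and the build mm9, with no versions or roles listed. No quantifier, annotation or strand setting is given in the sources used here. Rows of one gene identifier were summed, and 401 rows without a gene identifier (0.605% to 0.943% of TPM) were left out. Names came from GENCODE M21, and 55141 identifiers had a symbol. The 14172 genes reaching 1 TPM in 4 or more libraries were tested with limma 3.58.1 in R 4.3.3, with a mean-variance trend on log2(TPM + 1). This scale understates changes of low genes. FDR values are Benjamini-Hochberg adjusted over these genes. The fit was also run on simulated data, with shifts larger than the difference of any member. That run therefore does not show whether differences of the size seen here would be found. Isoform shares were compared over the 70 arrangements of 4 and 4 mice with a two-sided exact permutation test. Copies were searched with BLAST+ 2.17.0 against M21 transcripts. Opposite-strand genes overlap exons of 27 members and exceed 10% of the member's level for 5 of them (Ndufs6, Ndufs1, Cox6a2, Ndufa3 and Ndufa4l2), whose levels are uncertain. The opposite gene was above the member itself for Ndufs1 (Eef1b2 at 294 TPM, Ndufs1 at 68.5) and Cox6a2 (Itgad at 7.91 TPM, Cox6a2 at 2.49). RefSeq promoter coordinates are on GRCm38.p6, not mm9. Members named with values are, in each complex, the 3 with the smallest p, the 2 highest and the lowest level, those with p below 0.05 or separated groups, catalytic subunits and alternative isoforms; 1 member of complex I is counted but not reported here. Members, lists and motifs were chosen with earlier results of these data known. Alternatives were a pseudocount of 0.1, no filter, median-ratio scaling, a total without mitochondrial genes, the highest row in place of the sum, omission of each mouse and, chosen after seeing the data, adding near-identical copies.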

Additional observations from a re-analysis of the deposited data

Results flagged for a closer look

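In 8 of 114 sets of 4 mice, 1 mouse lay far from the other 3, by the gap to its nearest neighbour as a share of the whole range (beyond Dixon's 95% critical value). Chance flags about 1 set in 20. Atp5g3 in WT had 708 TPM in 1 mouse and 641 to 649.9 TPM in the others (share 0.871), and Cox6b1 in WT had 785 TPM against 684 to 699 TPM (share 0.849). Both high values were in WT 5. In AKO, Cox4i1 was at 1036 TPM in AKO 3 and 1185 to 1202 TPM in the others (share 0.897). Atp5s was at 16.6 TPM in AKO 3 and 13.95 to 14.4 TPM in the others (share 0.846), and without AKO 3 its log2 difference was 0.29. Cox8c stood out in AKO 11 at 4.43 TPM, against 0.49 TPM or less (share 0.889). Cox7b2 was at 0 in 3 mice of each group and at 0.24 TPM in WT 5 and 1.63 TPM in AKO 11 (share 1 in both). The Ndufa4l2 share of its pair was 6.13% in WT 4, against 5.07% to 5.24% in the other WT mice (share 0.842).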

How the results depend on the processing

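Over 8 single-mouse omissions and 6 other settings, 0 members reached an FDR of 0.05 with limma, and the smallest member FDR was 0.332 (Atp5s without WT 3). The count of members at an unadjusted limma p below 0.05 was 2 with no filter, which added Cox7b, and 1 to 2 with each mouse left out, where Ndufa13 (without WT 2), Cox7b (WT 3), Atp5g2 (WT 5) or Cox6b2 (AKO 9) was added. The share of all genes at that unadjusted level was not counted in these settings. Genes past an FDR of 0.05 over all genes numbered 4 with all mice and 1 to 5 with each mouse left out. That number fell to 2 without WT 2, 1 without AKO 3 and 2 without AKO 11. The cause was not tested.

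Of the 81 members 39 changed sign when some single mouse was left out (19 of 36 in complex I, 2 of 4 in II, 6 of 8 in III, 7 of 16 in IV and 5 of 17 in V), and 13 under some other setting. Among the members named with values, those that did so on omission had these ranges on the log2 scale: Atp5g1 (-0.037 to 0.20), Cox6a1 (-0.0058 to 0.13), Cox7a2l (-0.037 to 0.060), Cox8a (-0.15 to 0.019), Ndufa4 (-0.10 to 0.022), Ndufa4l2 (-0.15 to 0.066), Ndufa7 (-0.10 to 0.010), Ndufb4 (-0.14 to 0.040), Ndufs7 (-0.094 to 0.030), Ndufv1 (-0.10 to 0.046), Sdha (-0.12 to 0.0041), Sdhb (-0.048 to 0.011), Uqcr10 (-0.037 to 0.078), Uqcr11 (-0.039 to 0.11) and Uqcrfs1 (-0.094 to 0.025). Isoform shares that did so had these ranges in percentage points: Cox4i2 (-0.019 to 0.21), Cox6a2 (-0.016 to 0.13), Cox7a2l (-2.37 to 0.56), Ndufa4l2 (-0.19 to 0.16), Atp5g1 (-0.68 to 1.25), Atp5g2 (-0.033 to 0.43) and Atp5g3 (-1.58 to 0.61). Other reversals among them were Cox7a2l under median-ratio scaling (-0.0037), Sdhb with the highest row per gene (0.019), the Cox6a2 share with the highest row (-0.0079 percentage points) and the Atp5g1 share with copies added (-0.028 percentage points). None of these values had been past a threshold, and the cause was not tested. TPM without depth gives no counting error. No paired analysis was possible because the groups share only the number 3, which marks different animals.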
